A study of Mus musculus with 6 samples.

Results

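Chemokines and inflammatory cytokines are secreted signals that recruit and activate immune cells, and 10 genes of this kind were followed across 6 mouse cortical cultures: Ccl2, Ccl3, Ccl4, Ccl12, Cxcl10, Cxcl1, Il1b, Il6, Tnf and Ptgs2. They were taken by name, as all probes on the array whose gene name is one of the 10, which gave 16 of 56595 probes and 10 of 37071 gene names. The cultures were dissociated cerebral cortex of C57/B6 mouse embryos at embryonic day 16, grown on poly-D-lysine in Neurobasal medium with B27 plus and collected on day 12 in vitro. Controls (3 cultures, numbered 1 to 3) were not exposed, and irradiated cultures (3, also numbered 1 to 3) were exposed to 3.1 THz terahertz radiation, whose frequencies lie above those of microwaves, in 1 daily session of 3 hours between day 5 and day 9 in vitro. Each sample was read on its own 1-colour Agilent array. The labels do not say whether samples came from separate dissections, or what a shared number stands for, so the spread that p-values measure here is only that among these samples and may be technical.

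In brain tissue most of these genes are known mainly from microglia, the resident macrophages, and from astrocytes. The CC chemokines Ccl2 and Ccl12 attract monocytes through the receptor Ccr2, while Ccl3 and Ccl4 are macrophage inflammatory proteins that attract leukocytes. The CXC chemokine Cxcl10 is induced by interferons and binds Cxcr3, and Cxcl1 attracts neutrophils through Cxcr2. Il1b, Il6 and Tnf encode the classical inflammatory cytokines. Ptgs2 encodes the inducible cyclooxygenase of prostaglandin synthesis and is also switched on by firing in cortical neurons.

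Of the 10 genes, 8 had a probe well above background on all 6 arrays. None of them passed the adjusted threshold between irradiated and control cultures, nor did any of the 40552 probes tested. Between arrays numbered 1 and the others, 3 of the 10 tested probes passed, from 2 of the 8 tested genes, where 1.2% of all tested probes did. Ccl3 and Ccl4 were several-fold higher on both arrays numbered 1, whether control or irradiated. Ccl12 was well above background on those arrays alone. Cxcl10 lay lowest on the same arrays, and Il6 was not well above background anywhere.

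The stretches before the start sites are shown for 4 of the genes because they contrast the chemokines that were high on the arrays numbered 1 (Ccl3 and Ccl12) with the CXC chemokines whose highest value was on irradiated 2 (Cxcl10 and Cxcl1). Promoters were in the RefSeq table for 8 of the 10 genes (GRCm38.p6), and the 250 bases before each start were searched on both strands. Capitals mark matches to any of 5 motifs: kappa B (GGG, any 2 bases, TT, any 1 base, CC), bound by NF-kB, the interferon-stimulated response element (GAAA, any 2 bases, GAAA), AP-1 (TGANTCA), the core of the cyclic AMP response element (TGACGT) and PU.1 (GAGGAAGT). The positions are chr11:83649379-83649628 on the minus strand for Ccl3, chr11:82101595-82101844 on the plus strand for Ccl12, chr5:92348890-92349139 on the minus strand for Cxcl10 and chr5:90890995-90891244 on the plus strand for Cxcl1.
Ccl3: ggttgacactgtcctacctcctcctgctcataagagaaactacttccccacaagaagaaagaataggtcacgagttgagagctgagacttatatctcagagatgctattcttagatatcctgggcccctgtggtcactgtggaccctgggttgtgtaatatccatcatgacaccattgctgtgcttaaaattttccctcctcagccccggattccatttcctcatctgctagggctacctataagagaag
Ccl12: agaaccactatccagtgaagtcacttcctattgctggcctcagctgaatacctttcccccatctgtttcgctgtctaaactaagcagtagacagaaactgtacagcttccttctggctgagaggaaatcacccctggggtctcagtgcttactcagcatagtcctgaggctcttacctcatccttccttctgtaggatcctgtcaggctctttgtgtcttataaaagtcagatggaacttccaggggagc
Cxcl10: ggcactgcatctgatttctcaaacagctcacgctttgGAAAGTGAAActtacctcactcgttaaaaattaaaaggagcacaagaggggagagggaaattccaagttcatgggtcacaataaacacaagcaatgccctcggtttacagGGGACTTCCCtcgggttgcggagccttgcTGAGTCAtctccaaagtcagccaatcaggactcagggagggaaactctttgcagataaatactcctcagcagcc
Cxcl1: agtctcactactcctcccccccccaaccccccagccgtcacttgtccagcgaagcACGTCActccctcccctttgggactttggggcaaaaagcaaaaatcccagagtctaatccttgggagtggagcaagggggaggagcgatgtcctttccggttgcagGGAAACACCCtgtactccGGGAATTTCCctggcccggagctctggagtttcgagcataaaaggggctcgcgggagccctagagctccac

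Cxcl10 held a kappa B match from 103 to 94 bases before its start, an interferon-stimulated response element match from 213 to 204 and an AP-1 match from 74 to 68. Cxcl1 held 2 kappa B matches, from 89 to 80 on the opposite strand and from 71 to 62, and a cyclic AMP response element core. No match to the 5 motifs was found in the windows of Ccl3 and Ccl12, nor in those of Il1b, Tnf and Ptgs2. In the window of Il6, kappa B, AP-1 and cyclic AMP response element matches were found. Over all 32851 promoter windows of the same length, kappa B matched in 4.11%, the interferon-stimulated response element in 2.98%, AP-1 in 6.75%, the cyclic AMP core in 6.47% and PU.1 in 2.44%. None of the matches overlapped another motif, and a match describes letters only.

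Values below are log2 processed signals from which the 75th percentile of the same array was subtracted, so a probe at that percentile reads 0 and the 10 genes lie below it. That percentile was 319.7, 465.0 and 707.3 signal units for the controls (1, 2, 3) and 840.7, 891.9 and 635.1 for the irradiated cultures (1, 2, 3), and 63.26% to 73.52% of probes were well above background. Neuron markers were all measured (11 of 11 well above background on every array), and so were all 10 astrocyte markers and 15 or 16 of 16 microglia markers, so markers of glia were present beside those of neurons in cultures labelled as neurons. All arrays shared 1 slide and 1 scan time. Controls 1, 2 and 3 stood in row 1, columns 1, 2 and 3, and irradiated 1 in row 1, column 4. Irradiated 2 and 3 stood in row 2, columns 1 and 2. Row and group thus overlap in part, and the part of position was not tested. Tests were limited to probes that were well above background on 3 or more arrays, whichever group these belonged to; 10 probes of 8 of the genes did, among 40552 in all, while Ccl12 and Il6 did not.

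**Figure D1:**
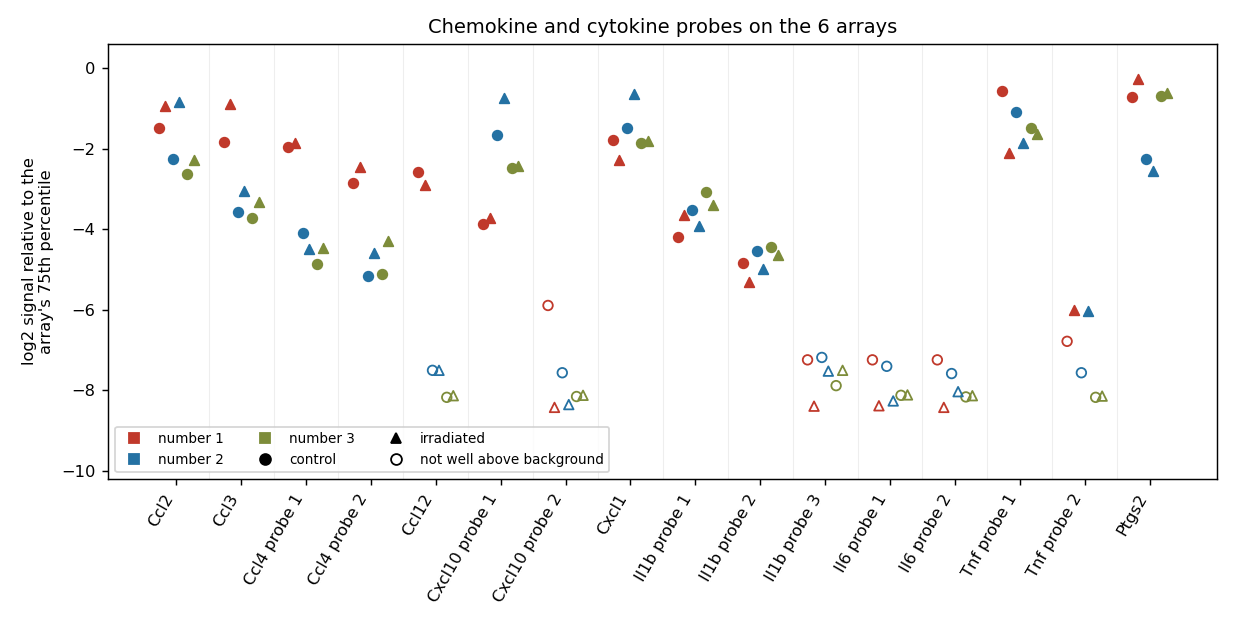
The vertical axis gives log2 signal, with the 75th percentile of each array at 0, for all 16 probes; circles are control and triangles irradiated cultures, colours give the array number, and open symbols mark spots not well above background. Ccl3, Ccl4 and Ccl12 are highest on the arrays numbered 1, Cxcl10 is lowest there, and both Il6 probes are open on all 6 arrays.

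The CC chemokines Ccl3 and Ccl4, which lie side by side on chromosome 11, showed the array number most clearly. Ccl3 (probe at chr11:83461358-83461417, minus strand, build mm9) measured -1.83, -3.56 and -3.73 on controls 1 to 3 and -0.89, -3.05 and -3.32 on irradiated arrays 1 to 3. Ccl4 (chr11:83478052-83478111, plus strand) measured -1.95, -4.10 and -4.87 on the controls and -1.86, -4.49 and -4.46 on the irradiated arrays. For both genes the arrays numbered 1 stood above the other 4, and the groups overlapped. The second Ccl4 probe, which shares 46 of its 60 bases with the first, measured -2.85, -5.17 and -5.10 on the controls and -2.46, -4.59 and -4.30 on the irradiated arrays. Both arrays numbered 1 were again above the other 4, and because of the shared sequence the probe is not a separate line of evidence.

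To compare the numbers, limma was fitted over all 40552 probes with group as a covariate, as the arrays numbered 1 minus the mean of those numbered 2 and 3. Of the 10 probes, 3 passed an adjusted p of 0.05 in the higher direction and 0 in the lower, where 0.9% of all probes passed as higher, 0.301% as lower and 1.2% in either direction. At an unadjusted p under 0.05, 5 were higher and 1 lower, against 8.87% and 9.59% of all probes, or 18.5% together. Ccl4 was 5.96-fold higher, a log2 difference of 2.57 (95% interval 1.95 to 3.20, limma adjusted p = 0.031), and its second probe 4.39-fold higher (2.14, interval 1.61 to 2.66, limma adjusted p = 0.0312). Ccl3 was 4.14-fold higher (2.05, interval 1.49 to 2.61, limma adjusted p = 0.0367). The difference was found in each group taken alone: Ccl3 was higher on number 1 by 1.81 in controls and 2.29 in irradiated cultures, and Ccl4 by 2.53 and 2.62. The median over the 10 probes was 0.49, against -0.06 over all probes. The calls did not survive every array left out. Without control 3 no probe of the array passed and the adjusted p of all 3 probes was 0.14; without irradiated 3 it was 0.132, again with 0 probes called, while the differences stayed between 1.97 and 2.71. With no filter on dim probes the adjusted p rose to 0.0788 for Ccl3 and to 0.0698 and 0.0706 for the Ccl4 probes. The second Ccl4 probe alone was also not called without control 1 (adjusted p = 0.0649). With normexp background correction the differences were 1.47 for Ccl3 (adjusted p = 0.0227), 1.48 for Ccl4 (0.03) and 1.08 for its second probe, which was then not called (0.0729).

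Ccl12, a second monocyte attractant of the mouse CC cluster on chromosome 11, showed the widest contrast. Its probe (chr11:81916710-81916769, plus strand, mm9) measured -2.57 on control 1 and -2.91 on irradiated 1, and was well above background on no other array, where it read from -8.17 to -7.50. Its processed signal was 53.8 and 111.7 units on the arrays numbered 1 and between 2.3 and 4.9 units on the other 4. It was therefore at least 8.12-fold higher on the arrays numbered 1, as the mean of 2 arrays against the mean, over the other 4, of the lowest signal that counted as well above background. With 2 arrays above background it missed the filter. In the fit without a filter its adjusted p was 0.0565, with a difference of 5.08, which rests on values not well above background and is no measured fold.

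Ccl2, the nearest homologue of Ccl12 among the 10 and the main monocyte attractant, was well above background on every array. Its probe (chr11:81850650-81850709, plus strand, mm9) measured -1.48, -2.26 and -2.63 on controls 1 to 3 and -0.93, -0.83 and -2.28 on irradiated arrays 1 to 3. Irradiated 1 and 2 gave the highest values, and the number did not separate the arrays. The arrays numbered 1 minus the others gave 0.80 (interval 0.06 to 1.54, limma adjusted p = 0.246). Ccl2 and Ccl12 therefore differed in pattern on irradiated 2, where Ccl2 was high and Ccl12 not well above background. The longest run shared by probes of different genes among the 10 was 10 bases.

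**Figure D2:**
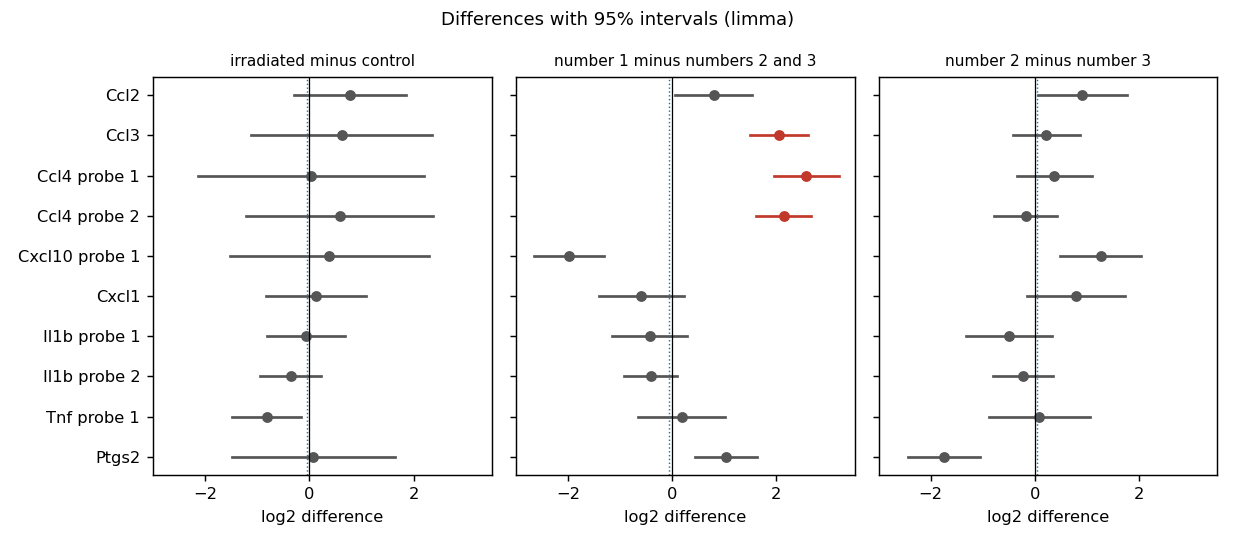
Each point is a log2 difference for 1 of the 10 tested probes and each line its 95% interval from limma, for irradiated minus control, for number 1 minus numbers 2 and 3, and for number 2 minus number 3; red marks an adjusted p under 0.05 and the dotted line the median of all probes. The red points are Ccl3 and the 2 Ccl4 probes in the middle panel, from 2.05 to 2.57, while Cxcl10 lies at -1.98 with an adjusted p of 0.0501.

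The CXC chemokines, both encoded on chromosome 5, did not follow the CC genes. Cxcl10 (chr5:92775781-92775840, minus strand, mm9) measured -3.88, -1.66 and -2.48 on controls 1 to 3 and -3.72, -0.73 and -2.42 on irradiated arrays 1 to 3. Both arrays numbered 1 were the lowest and both numbered 2 the highest, in the same order in each group. The arrays numbered 1 lay 3.95-fold below the others (-1.98, interval -2.65 to -1.31), with a limma adjusted p of 0.0501, just outside the threshold. That value ranged from 0.0193 to 0.167 over the alternatives run, and the difference was -1.05 with normexp background correction. Of the 10 probes, 1 had both arrays numbered 1 below the other 4, where 16.5% of all probes did, and 3 had both above, where 12.4% did; 29% of all probes were set apart in one direction or the other. Number 2 minus number 3 was 1.26 for Cxcl10 (interval 0.48 to 2.03, limma adjusted p = 1), and 0 of all 40552 probes passed in that comparison, with 1204 (2.97%) at an unadjusted p under 0.05, 1.8% higher and 1.17% lower. At that level 2 of the 10 probes were higher (Cxcl10 and Ccl2) and 1 lower (Ptgs2).

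A second Cxcl10 probe (chr5:92776616-92776675), was well above background on no array. Cxcl1, the neutrophil attractant (chr5:91322080-91322139, plus strand, mm9), measured -1.79, -1.48 and -1.86 on the controls and -2.29, -0.65 and -1.82 on the irradiated arrays. Irradiated 2 was the highest for Cxcl1, as it was for Cxcl10, and irradiated 1 the lowest. The arrays numbered 1 differed from the others by -0.59 (interval -1.40 to 0.22, limma adjusted p = 0.384), and for Cxcl1 the arrays numbered 1 overlapped the rest. Both arrays numbered 2 were above the other 4 for Cxcl10 and for Cxcl1, where 5.25% of all probes had that order.

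Ptgs2 singled out the arrays numbered 2. Its probe (chr1:151954744-151954803, plus strand, mm9) measured -0.71, -2.26 and -0.70 on controls 1 to 3 and -0.28, -2.55 and -0.61 on irradiated arrays 1 to 3. Both arrays numbered 2 lay more than 1 log2 unit below the other 4, and 4.75% of all probes had both of these arrays lowest. Number 2 minus number 3 was -1.75 (interval -2.44 to -1.06), the 38th smallest p of 40552 probes, with a limma adjusted p of 1. Number 1 minus the others was 1.04 (interval 0.44 to 1.63, limma adjusted p = 0.116). The 2 arrays on which Cxcl10 was highest were thus the 2 on which Ptgs2 was lowest.

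The 3 cytokine genes gave no call for the array number, and Il6 could not be tested. Il1b was read by 2 tested probes: the first (chr2:129190347-129190406, minus strand, mm9) measured -4.19, -3.52 and -3.07 on the controls and -3.64, -3.93 and -3.40 on the irradiated arrays. Its second probe (chr2:129190880-129190939) ranged from -5.30 to -4.45, and another probe was well above background on no array. The arrays numbered 1 were not higher for either tested probe (-0.43, interval -1.15 to 0.28, and -0.41, interval -0.92 to 0.09). Both Il6 probes (chr5:30346159-30346218 and chr5:30346367-30346426, plus strand) were not well above background on any array, with signals between 2.1 and 3.4 units, so Il6 has only an upper bound here. The brighter Tnf probe (chr17:35336967-35337026, minus strand, mm9) measured -0.57, -1.09 and -1.48 on the controls and -2.11, -1.86 and -1.64 on the irradiated arrays, and its number 1 difference was 0.18 (interval -0.66 to 1.01).

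The labels set irradiated against control cultures on day 12, after sessions that ended on day 9. Of the 10 tested probes, 0 passed the adjusted threshold in limma, as did 0% of all probes, and their adjusted p ran from 0.519 to 0.993. At an unadjusted p under 0.05 there was 1, Tnf, lower, where 5.01% of all probes were lower at that level, 4.02% higher and 9.03% either. The median difference over the 10 probes was 0.10, and over all probes -0.05. The intervals were wide: for Ccl4 the difference was 0.04 with a 95% interval from -2.13 to 2.20, and for Ccl3 it was 0.62 with an interval from -1.11 to 2.36. Those intervals hold no change as well as a 4-fold change in Ccl4 in either direction. This fit left out the array number, so the spread between numbers is part of those intervals. Within numbers 1, 2 and 3, irradiated minus control was 0.94, 0.51 and 0.41 for Ccl3. It was 0.56, 1.43 and 0.35 for Ccl2, 0.39, 0.57 and 0.80 for the second Ccl4 probe and 0.16, 0.93 and 0.06 for Cxcl10. Tnf (-1.54, -0.77, -0.16) and the second Il1b probe (-0.47, -0.43, -0.18) were lower in each. The remaining tested probes changed sign between numbers.

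For Tnf the control mean was -1.04 ± 0.46 and the irradiated mean -1.87 ± 0.23 (SD, n = 3 per group). They differed by -0.82 (95% interval -1.49 to -0.16, limma adjusted p = 0.519). All 3 irradiated values lay below the 3 controls, as they did for 9.77% of all probes. Tnf was the 1 probe of the 10 without overlap, and 0 had all irradiated values above, where 5.76% of all probes did (15.5% either way). The unscaled signal of this probe, however, was 215.5, 218.8 and 254.0 units on the controls and 195.0, 245.7 and 203.8 on the irradiated arrays, and these overlap. The array's 75th percentile ran from 319.7 to 707.3 in controls and from 635.1 to 891.9 in irradiated cultures, and its part in the difference was not tested. After quantile normalisation the difference was -0.89 and without both arrays numbered 1 it was -0.47. The second Tnf probe (chr17:35336795-35336854) was well above background on irradiated 1 and 2 alone, at -6.00 and -6.02. The lowest values that counted as well above background on the controls were -4.91, -5.28 and -5.91, so this probe gives no direction for the gene.

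For Ccl2 the control mean was -2.13 ± 0.59 and the irradiated mean -1.35 ± 0.81 (SD, n = 3 per group). They differed by 0.78 (interval -0.30 to 1.86, limma adjusted p = 0.548). Irradiated 3 lay among the controls. Cxcl10 differed by 0.38 (interval -1.53 to 2.29), Cxcl1 by 0.12 (interval -0.84 to 1.09) and Ptgs2 by 0.08 (interval -1.49 to 1.65), each less than the SD of either group. The Il1b probes differed by -0.06 (interval -0.81 to 0.69) and -0.36 (interval -0.94 to 0.22, limma adjusted p = 0.589); the second probe had SDs of 0.20 and 0.34 over 3 arrays a group. Ccl12 was above background on 1 array of each group, at -2.57 and -2.91. With irradiated 1 left out and control 1 kept, the difference for Ccl3 was -0.14. Without both arrays numbered 1 it was 0.46. The difference for Ccl4 was -0.83 without irradiated 1, -0.19 without control 2, -0.58 without control 3 and 0.88 without control 1. Without both arrays numbered 1 it was 0.01 for Ccl4. Leaving out 1 array numbered 1 sets the numbers unevenly between the groups.

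Other genes of the same signalling system were read from 7 lists that hold 106 further genes, of which 81 were tested. Between irradiated and control cultures 0 of the 81 passed the adjusted threshold and 1 passed at an unadjusted p under 0.05, the interleukin Il27, at -0.76, where 9.03% of all probes did. On the arrays numbered 1, 7 of the 81 passed as higher and 0 as lower, where 0.9% of all probes passed as higher and 0.301% as lower. The 81 are genes, each read from 1 probe. In a refit with 1 probe per gene name, 630 of 26152 passed as higher and 333 as lower. Among 15 tested chemokines outside the 10, Ccl6, a macrophage chemokine, was called at 3.73 (interval 2.76 to 4.71, limma adjusted p = 0.0338), and Ccl9 measured 2.51 with an adjusted p of 0.0523. Among 9 prostaglandin enzymes, Tbxas1, the thromboxane synthase, was called at 2.61 and Ptgs1, the constitutive cyclooxygenase, at 1.70, while Ptgs2 of the same pathway was not called. Of 20 genes around NF-kB, 1 was called: Cd14, the co-receptor for bacterial lipopolysaccharide, at 2.85.

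Of 6 tested inflammasome and interleukin-processing genes, 1 was called, the pore-forming Gsdmd at 1.75, although Il1b itself was not higher there. Of 8 feedback inhibitors, 2 were called: Socs3, which dampens cytokine receptor signalling, at 1.76, and the phosphatase gene Dusp1 at 1.68. None of 12 tested receptors was called, the smallest adjusted p being 0.0863 for the tumour necrosis factor receptor Tnfrsf1a, at 1.04. Nor was any of 11 other cytokines, of which Tgfb1 had the smallest adjusted p, 0.0675, at 2.19. List medians for number 1 minus the others were 0.10 for other chemokines, 0.40 for other cytokines, 0.22 for receptors, 0.64 for prostaglandin enzymes, 0.23 for the NF-kB genes, 1.47 for the inflammasome genes and 0.69 for feedback inhibitors, against -0.06 for all probes.

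Most markers of macrophages moved with the array number too. Of 15 tested microglia markers, 9 were called higher on the arrays numbered 1 and 0 lower. Of all probes, 0.9% passed as higher and 0.301% as lower. In the refit with 1 probe per gene name, 630 of 26152 passed as higher and 333 as lower. The median of the microglia markers was 2.27, with 13 above 0 and 2 below, Siglech and Itgam. Among those called, C1qa, a complement component, differed by 3.43 and C1qc by 3.47. Of 7 tested markers of border macrophages and monocytes, 4 were called higher, with a median of 3.14, including Pf4 at 4.36 and Lyz2 at 3.14. The mean level of the microglia list was 1.16 on control 1 and 1.41 on irradiated 1 and lay between -1.06 and -0.51 on the other 4 arrays. Its summed signal, relative to the 75th percentile, ranged from 48.0 to 88.4 in controls and from 56.4 to 85.2 in irradiated cultures. That sum of unlogged signals gives most weight to Siglech, the brightest marker. Siglech measured 5.47, 5.99 and 5.04 on controls 1 to 3 and 5.09, 5.24 and 5.53 on irradiated arrays 1 to 3. Gpr34 was the 1 microglia marker not well above background on the arrays numbered 2 and 3, while Ccr2 and Cd163 of the other list were not well above background on any array. Astrocyte markers also lay higher on number 1 (median 0.96, with 1 of 10 called), and neuron markers did not (median -0.10, with 0 of 11 called). Oligodendrocyte lineage markers had a median of 0.49, with 1 of 9 called higher. The median was 0.26 for fibroblast markers, with 1 of 6 called higher, and -0.09 for endothelial markers, with 0 of 5 called. In bulk RNA more cells of a type and more RNA per cell cannot be told apart, and the part of these markers in the chemokine differences was not tested.

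**Figure D3:**
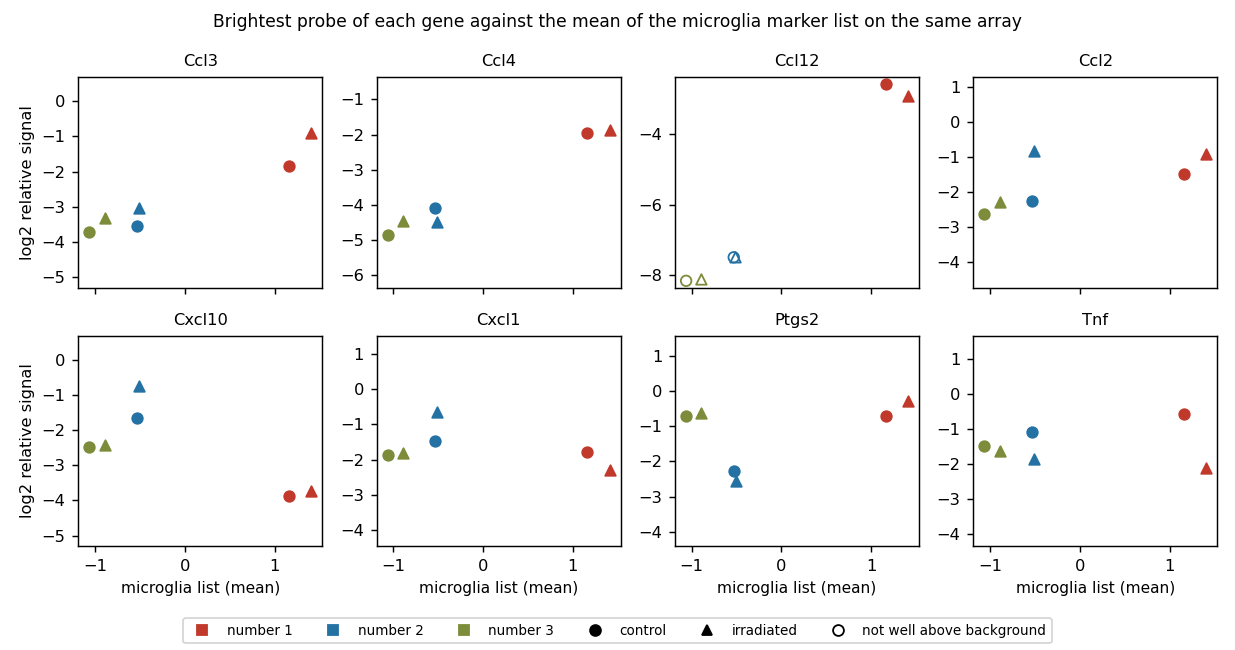
Each panel plots the brightest probe of 1 gene (vertical, log2 signal with the 75th percentile of each array at 0) against the mean of the 15 tested microglia markers on the same array (horizontal, the same scale); symbols as for the probe plot. The arrays numbered 1 stand apart at 1.16 and 1.41 on the horizontal axis, where Ccl3, Ccl4 and Ccl12 are high, Cxcl10 is low, and Ptgs2 and Tnf do not separate from all other arrays.

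Other blood cells were read from marker lists in the same way. Of 8 neutrophil markers, 3 were well above background on each array except irradiated 1, which had 4, and S100a8 and S100a9 were not well above background on any. Their summed signal ranged from 0.953 to 1.25 in controls and from 0.568 to 0.974 in irradiated cultures. Of the 3 neutrophil markers tested, 0 were called for the array number, with a median of -0.51. Of 8 markers of T and B cells, 5 or 6 were well above background, and 0 of the 6 tested were called, with a median of 0.35; their summed signal ranged from 2.06 to 4.95 in controls and from 1.75 to 2.15 in irradiated cultures.

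**Figure D4:**
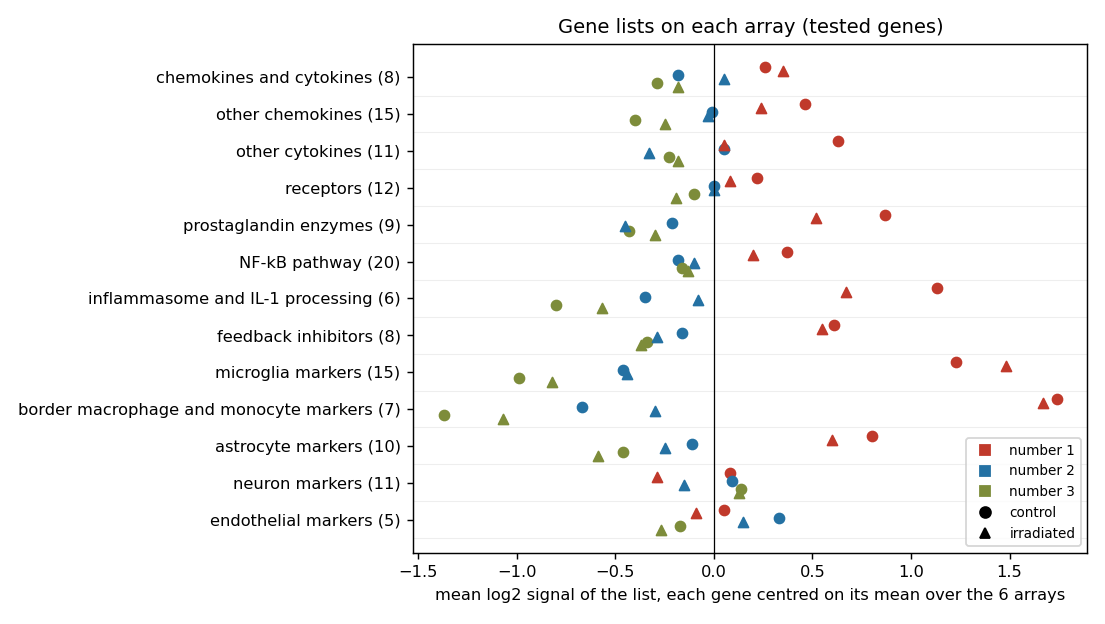
The horizontal axis gives the mean log2 signal of a gene list on each array after each gene is centred on its own mean over the 6 arrays, with the number of tested genes in brackets; circles are control, triangles irradiated, and colours the array number. Macrophage and microglia lists reach 1.23 to 1.74 on the arrays numbered 1, and the tested chemokine and cytokine genes 0.26 and 0.35.

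Among 22799 other genes well above background on all arrays, those most like the average profile of the 8 measured genes were Lama4, a laminin chain, and Cd48, a surface protein of leukocytes. Their Pearson correlations over the 6 arrays were 0.997 and 0.994. Next came Sh3pxd2b (0.990), Gm11127 (0.990) and the histocompatibility gene H2-L (0.989). Cd48 measured -2.09, -3.87 and -4.29 on controls 1 to 3 and -1.84, -3.22 and -3.89 on irradiated arrays 1 to 3. These are the highest of 22799 correlations over 6 arrays and describe these arrays only. The 8 genes themselves did not share 1 profile. Between their brightest probes, correlations ran from -0.90 for Cxcl1 with Ptgs2 to 0.94 for Ccl3 with Ccl4. Likeness to the average is therefore not likeness to each gene.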

How the data were processed

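Expression was read in 6 mouse cortical cultures on 1-colour Agilent arrays. The authors deposited each array's scanner output, with spot intensity from Agilent Feature Extraction 10.7.1.1 (the version in the submitters' processing notes) and background subtracted, per the file headers. A table of log2 expression was deposited too and looks quantile normalised from its values; no source used here names its tool.

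Outlier spots were dropped, replicate spots averaged on the log2 scale, and each array scaled to its 75th percentile over all probes other than controls. Gene names and mm9 positions are those in the files, and what the annotation places at them was not looked up. Probes well above background on 3 or more arrays were fitted with limma 3.58.1 in R 4.3.3, with Benjamini-Hochberg adjustment over 40552 probes and calls at 0.05. The 10 genes, the further lists and the comparison of array numbers were chosen with earlier results of these data known, so a list's direction is no independent evidence. Named genes outside the 10 were the 2 of a list with the smallest p in a comparison, and the 5 most like the average profile; each was read from its brightest probe. Markers not well above background, and the microglia markers Siglech and Itgam, which lay below 0, were also named, after their values were seen. The number of arrays limits the precision. Alternatives were quantile normalisation, normexp correction, the deposited table, other filters, 1 probe per gene name, a replicate block and each array left out.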

Additional observations from a re-analysis of the deposited data

How the results depend on the processing

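Of 384 refits of single probes of the 10 genes, 345 kept their direction and side of the threshold, 11 lost a call, 5 gained one and 23 changed sign, none of these with an adjusted p under 0.05. For irradiated minus control, 4 probes of the whole array passed with quantile normalisation and 4 with the deposited log2 table, against 0 as reported, and none was one of the 10 genes. For number 1 minus numbers 2 and 3, 487 probes passed as reported, 735 with normexp correction, 1 with no filter on dim probes, 1091 among probes well above background on all 6 arrays and 963 with 1 probe per gene name; with 1 array left out the count ran from 0 (without control 3 or irradiated 3) to 2713 (without irradiated 1, 903 higher and 1810 lower, against 365 and 122 as reported), with 245 without control 1 and 748 without irradiated 2. For number 2 minus number 3, 1 probe passed with normexp correction, and between 0 and 3 with 1 array left out. The cause of these changes was not tested. Normexp correction moved the median of all probes from -0.05 to -0.20 for irradiated minus control and from -0.06 to 0.10 for number 1 minus the others. Fits that leave a number with 1 array assume that it varies like the others. Sign changes for irradiated minus control were -0.21 and -0.10 for the Ccl4 probes with normexp correction and -0.09 for Ptgs2 without both arrays numbered 1, a setting added after the data were seen. With 1 array left out the differences ran from -0.14 to 1.23 for Ccl3, from -0.83 to 0.88 and from -0.08 to 1.35 for the Ccl4 probes, from -0.40 to 1.10 for Cxcl10, from -0.35 to 0.48 for Cxcl1, from -0.36 to 0.20 for the first Il1b probe and from -0.44 to 0.78 for Ptgs2. For the array number, normexp correction gave 0.02 and 0.11 for the Il1b probes and, for number 2 minus number 3, 0.02 for the second Ccl4 probe; with 1 array left out the first Il1b probe ran from -0.89 to 0.03, Tnf from -0.36 to 0.71 and, for number 2 minus number 3, Tnf from -0.41 to 0.58. With the replicate number as a block, irradiated minus control called 0 probes, as without it, and 0 with quantile normalisation added. With the block, the adjusted limma p of the 10 probes ran from 0.495 to 0.944. The lowest value was shared by Ccl2, Ccl3, the second Ccl4 probe, the second Il1b probe and Tnf. The highest was that of the first Ccl4 probe, with a difference of 0.04. Deviations of same-numbered arrays from their group means correlated at 0.46, 0.33 and 0.09 for the numbers 1, 2 and 3, and not every array correlated best with its own number, over the tested probes, so the pairing was not taken as given.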
